A study of Mus musculus with 16 samples.

Results

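The Gadd45 genes Gadd45a, Gadd45b and Gadd45g were followed, together with Gadd45gip1, through livers with and without a null allele of Gadd45b, to see whether the paralogues left in the null mouse were raised. Members were chosen by name, as all array probes whose RefSeq accession belonged to these 4 genes, which gave 6 probes of the 41174 on the array. Gadd45a and Gadd45g had 1 probe each and Gadd45b and Gadd45gip1 had 2 each, and all 6 were among the 24457 probes tested. RNA from 16 livers of male mice was hybridised to 16 Agilent whole mouse genome arrays of 1 colour, 1 array per mouse. All mice, controls included, had been injected when 5 weeks old with 90 mg/kg of the carcinogen N-diethylnitrosamine (DEN), and livers were taken at 57 weeks. The 4 groups of 4 mice were wild type given DEN alone (WT DEN), wild type given DEN and then phenobarbital (WT DEN + PB), Gadd45b null given DEN alone (KO DEN) and Gadd45b null given both (KO DEN + PB). Phenobarbital (PB), a drug that activates the nuclear receptor CAR and promotes liver tumours, was in the drinking water at 0.5 g/l from 7 weeks of age. Tumours were left out of the tissue taken. C57BL/6J mice served as WT, while for the null line the study's text gives a C57BL/6J background in one place and a stock named with 129S6 beside B6 in another, so that strain and null allele cannot be told apart. The part of the gene removed is not given in the sources used here.

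GADD45 proteins are small acidic proteins without known enzyme activity, induced by stress and DNA damage. They bind other proteins, among them the kinase MAP3K4 upstream of p38 and JNK, the cell cycle kinase CDK1, the inhibitor p21 and the DNA clamp PCNA. GADD45B is known in liver as an early response gene of CAR activators and of regeneration, and can bind CAR itself. GADD45GIP1 is no paralogue: it is a protein of the mitochondrial ribosome that was also isolated as a partner of GADD45 proteins, and is therefore a companion to the family and not a replacement for it.

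The arrays differed in brightness and in how closely they followed their group. Weights fitted for the latter ran from 0.392 (KO DEN replicate 2) to 4.42 (WT DEN + PB replicate 2), and were used only in 1 alternative setting. Per array, 58.3% to 67.7% of spots were well above background, and the processed signal had a 75th percentile of 137 to 294. Levels below are log2 ratios of a probe's processed signal to that percentile on its array, so that 0 is a spot as bright as that percentile and a step of 1 is a doubling. Levels of different probes are not set against each other, because probes differ in brightness for reasons other than RNA. All 6 hepatocyte markers with a probe, of 7 listed, were well above background on every array, and the pancreatic acinar markers Cpa1 and Pnlip were below it on every array.

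The regulatory regions of the 3 paralogues are shown first, since the genes are compared below for moving together. Each is 300 bases from RefSeq on GRCm38.p6, 250 before and 50 after the gene's start, read 5′ to 3′ on the gene's own strand. RefSeq held these windows for 3 of the 4 members. Gadd45a lies on the minus strand at chr6:67037358-67037657, Gadd45b on the plus strand at chr10:80929841-80930140 and Gadd45g on the plus strand at chr13:51846425-51846724. Capitals mark matches to 4 short motifs of promoters. The first is the TATA box, spelled TATAAA, which positions the polymerase. The next is the box named for its own letters, CCAAT, which the factor NF-Y binds. The third is the GC box of Sp1, spelled GGGCGG and here also marked where it lies on the other strand. The last is the E-box, spelled CACGTG, which factors such as USF and MYC bind. All motifs were searched on both strands.
Gadd45a: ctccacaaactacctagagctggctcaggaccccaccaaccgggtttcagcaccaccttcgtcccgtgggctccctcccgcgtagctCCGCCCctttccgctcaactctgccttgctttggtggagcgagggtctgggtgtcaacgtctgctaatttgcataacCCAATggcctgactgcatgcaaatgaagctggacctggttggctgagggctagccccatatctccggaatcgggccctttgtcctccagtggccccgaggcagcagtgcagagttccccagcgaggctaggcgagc
Gadd45b: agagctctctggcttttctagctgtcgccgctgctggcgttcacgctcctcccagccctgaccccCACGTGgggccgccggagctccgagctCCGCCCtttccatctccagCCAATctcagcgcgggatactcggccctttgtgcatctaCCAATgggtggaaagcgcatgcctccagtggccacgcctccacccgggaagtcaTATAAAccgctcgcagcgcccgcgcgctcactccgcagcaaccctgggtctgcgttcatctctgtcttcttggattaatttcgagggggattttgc
Gadd45g: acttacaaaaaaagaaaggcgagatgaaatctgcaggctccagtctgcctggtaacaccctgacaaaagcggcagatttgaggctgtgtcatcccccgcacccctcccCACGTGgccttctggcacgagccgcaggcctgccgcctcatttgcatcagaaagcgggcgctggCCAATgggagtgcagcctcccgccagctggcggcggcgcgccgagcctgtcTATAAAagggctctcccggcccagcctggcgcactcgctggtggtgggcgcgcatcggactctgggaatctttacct

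A CCAAT box was in all 3 windows and in 37.4% of the 32851 RefSeq windows of the same length. Counted from the start, with -1 the base just before it, the match began at -86 in Gadd45a, at -139 and -100 in Gadd45b and at -78 in Gadd45g. The TATA box was found in Gadd45b and Gadd45g, at -46 and -27, and in 13.6% of all windows. The same 2 genes held an E-box, at -185 and -142, which 7.15% of all windows held. Gadd45a and Gadd45b shared a GC box, at -163 and -158, against 35.7% of all windows. The windows were 61% G or C in Gadd45a, 62% in Gadd45b and 62.3% in Gadd45g, against a median of 52.7%. No match was found in these windows for an AP-1 site (TGANTCA, in 7.81% of all windows), a CRE (TGACGTCA, 1.79%), a FOXO site (GTAAACA, 3.65%) or the consensus motifs of NF-kB (4.51%) and p53 (0.00913%). The marked motifs did not overlap each other. These matches describe letters, not binding.

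Gadd45b, the gene removed, passed background with both probes on all 8 arrays of WT livers and on 0 of 8 of KO livers. With the brighter probe (A_51_P500984), levels in WT DEN livers were -0.60, -0.54, 0.12 and -1.69. In WT DEN + PB livers they were -0.16, 0.56, 1.17 and 0.58. KO spots were between 1.05 and 1.33 times their local background, whereas WT spots were between 4.36 and 21.2 times theirs. The 2 genotypes did not overlap on either probe, so the labels of all 16 arrays fit the gene. As KO had no level above background, WT was set against a floor. On each KO array this floor was the lowest signal of any probe well above background. It may lie below the detection limit of this probe. Against the floor, WT was 23.6-fold higher under DEN and 44.8-fold higher under DEN + PB. These sizes depend on the processing. With normexp background correction, which adds an offset of 50, the fitted KO minus WT change was smaller, down to -1.70 under DEN and -2.33 under DEN + PB. With the second probe (A_52_P1197913) WT was 11.96-fold and 27.0-fold higher than the same floor. Both probes entered the tests through the WT groups alone, and the KO values were not above background. A p-value from the fit would therefore add no support for the loss of this gene and is not given. A probe was called where the adjusted p was under 0.05 and the change 1.5-fold or more.

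**Figure D1:**
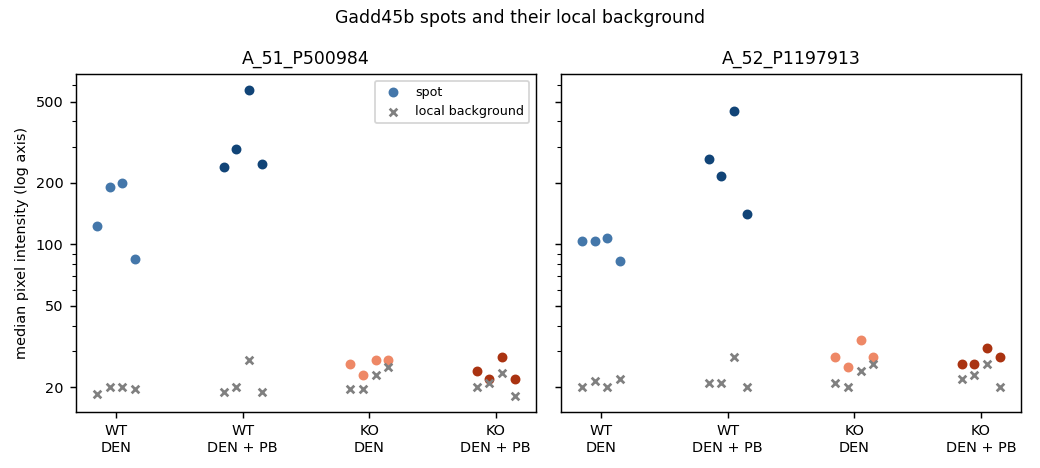
Median pixel intensity (log axis) of the spots of both Gadd45b probes, 1 coloured point per array in 4 groups of 4, with grey crosses for the local background of the same spot. All 8 WT spots of each probe are at least 3.77 times their background, and all 8 KO spots are between 1.05 and 1.42 times theirs.

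Gadd45a, the paralogue known as a target of p53, was lower in KO than in WT livers and not higher. Levels in WT DEN livers were 1.84, 2.31, 1.74 and 1.53 (mean 1.85 ± 0.33 SD, n = 4). In KO DEN livers they were 0.01, 0.57, 0.09 and -0.55 (mean 0.03 ± 0.46 SD, n = 4). Every WT DEN liver lay above every KO DEN liver, as also held, in that direction, for 5.43% of all probes tested. Gadd45a was thus 3.55-fold lower in KO under DEN, a log2 change of -1.83 ± 0.33 SE with a 95% interval from -2.54 to -1.12 (limma, adjusted p = 0.00908, two-sided exact permutation p = 0.0286, the smallest that 4 against 4 allow). It was among the 1.41% of probes called lower, while 1.66% were called higher. The call was lost with normexp background correction, where the change was -1.44 with adjusted p = 0.171. It was kept with normexp when spots with outlying background were left out.

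Under DEN + PB the same direction was seen with more overlap. WT DEN + PB livers were at 1.88, 2.66, 3.46 and 2.73 (mean 2.68 ± 0.65 SD, n = 4). KO DEN + PB livers were at 1.41, 1.66, 2.15 and 0.72 (mean 1.48 ± 0.60 SD, n = 4). The highest KO liver (replicate 3) lay above the lowest WT liver (replicate 1), and the other 3 WT livers lay above all 4 KO livers. Full separation in that direction was seen for 8.22% of probes. Gadd45a was 2.30-fold lower in KO, a log2 change of -1.20 ± 0.33 SE with an interval from -1.91 to -0.49 (limma, adjusted p = 0.0403, exact permutation p = 0.0571), in a comparison that called 6.74% of probes, 4.61% lower and 2.13% higher. This call was near the threshold and was lost under 5 of 12 other settings, with changes from -1.54 to -0.93 over all 12. It was also lost without WT DEN + PB replicate 2 (-1.21), 3 (-0.94) or 4 (-1.18), without KO DEN + PB replicate 1 (-1.17), 2 (-1.26) or 4 (-0.94), and without WT DEN replicate 1 or KO DEN replicate 1, where the change was the same and the adjusted p was 0.0504 and 0.051 (limma). On the 4 slides that held 1 array of each genotype, the KO minus WT difference under DEN + PB was -1.95, -1.32, -0.22 and -1.30, and on the 2 such slides under DEN it was -1.27 and -1.74.

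Over both treatments Gadd45a was 2.85-fold lower in KO (log2 change -1.51 ± 0.24 SE, 95% interval -2.01 to -1.01, limma, adjusted p = 0.000605). The exact permutation test within treatments gave p = 0.000816. This call held under each of the 11 other settings that allow it and without each of the 16 arrays. It stands beside a background of 10.1% of probes called, 5.2% lower. Of all probes tested, 1272 were called lower in KO and 1210 higher, so calls in both directions were common.

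Summed markers of some other liver cells moved with genotype too. Brighter probes weigh more in such a sum, so it need not describe each marker. Among single probes, 5.43% under DEN and 8.22% under DEN + PB were lower in KO without overlap. The summed signal of all 6 leukocyte markers, relative to the 75th percentile, was 2.90 to 5.65 in WT DEN and 1.98 to 2.46 in KO DEN livers, and 3.67 to 4.94 in WT DEN + PB against 1.45 to 1.90 in KO DEN + PB. The sum of the 4 Kupffer cell markers was 43.8 to 115 against 27.7 to 38.2 under DEN, and 57.3 to 62.8 against 21.6 to 29.6 under DEN + PB. Endothelial markers (5 of 5) overlapped under DEN, at 14.7 to 18.1 against 10.2 to 17.5, and not under DEN + PB, at 14.2 to 17.5 against 9.93 to 11.8. Stellate markers (5 of 5) did likewise, at 11.0 to 14.97 against 8.57 to 11.8 under DEN and 11.7 to 22.01 against 8.32 to 9.22 under DEN + PB. No marker of these lists was below background on every array, and their part in the lower Gadd45a was not tested. Cholangiocyte markers (5 of 5) overlapped under DEN, at 11.9 to 31.7 in WT against 12.2 to 36.5 in KO, and were lower in KO without overlap under DEN + PB, at 17.7 to 35.5 against 11.98 to 15.4. Hepatocyte markers overlapped under DEN, at 992 to 1313 against 1115 to 1209, and went the other way under DEN + PB, at 906 to 1046 in WT against 1116 to 1336 in KO. The share of probes higher in KO without overlap is not given here, so this separation has no background beside it. Erythroid markers (4 of 4) overlapped in both treatments. They were at 62.7 to 101 in WT against 38.5 to 82.7 in KO under DEN, and at 63.5 to 102 against 53.3 to 86.1 under DEN + PB. In whole liver, fewer cells of a type and less RNA per cell cannot be told apart.

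**Figure D2:**
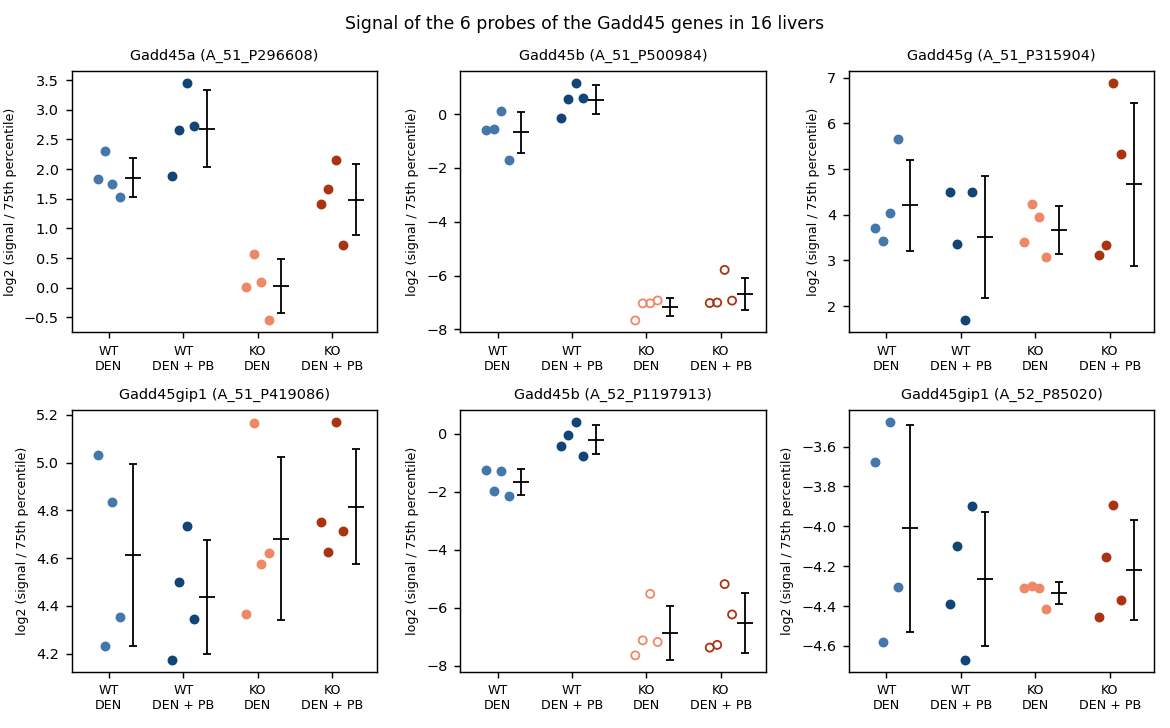
Level of each probe (log2 of signal over the array's 75th percentile) in 4 groups of 4 livers, 1 point per array, with the mean and SD as a bar to the right. Open points are not well above background. Gadd45a is lowest in KO DEN, Gadd45b is open in all 8 KO livers, and Gadd45g is spread most widely in KO DEN + PB and least in KO DEN.

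Gadd45a rose with PB in KO livers. There the 4 DEN + PB values all lay above the 4 DEN values, as held in that direction for 3.62% of probes, and the rise was 2.74-fold (log2 1.46 ± 0.33 SE, limma, adjusted p = 0.0348, exact permutation p = 0.0286). PB in KO called 1.72% of probes, 1.05% higher. The call was lost under 6 of 12 other settings, with changes from 1.16 to 1.53 over all 12. It was also lost without KO DEN replicate 1 (1.45), 3 (1.48) or 4 (1.26) and without KO DEN + PB replicate 1 (1.48), 2 (1.40) or 3 (1.23). On the slides with both treatments the KO rise was 0.15, 1.65 and 2.38. In WT livers the groups overlapped and the change of 0.83 ± 0.33 SE was not called (limma, adjusted p = 0.545, exact permutation p = 0.0571, 0.666% of probes called). The mean over genotypes was a rise of 2.21-fold (log2 1.14 ± 0.24 SE, limma, adjusted p = 0.0148, permutation p = 0.00122 within genotypes), against 1.75% of probes called and 1.28% called higher, and this call was lost under 3 of 11 other settings. The difference of the PB effects, WT minus KO, was -0.63 ± 0.47 SE and was not called (limma, adjusted p = 0.958, interval -1.63 to 0.38), where 0.00818% of probes were.

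The order of the Gadd45a group means was KO DEN, KO DEN + PB, WT DEN and WT DEN + PB. KO DEN did not overlap any of the other groups. KO DEN + PB and WT DEN, its neighbour, differed by 0.37 with overlap (exact permutation p = 0.314), and WT DEN and WT DEN + PB also overlapped.

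Gadd45b in WT livers had a higher mean under DEN + PB than under DEN on both probes. With the brighter probe the change was 1.22 ± 0.37 SE, and the groups overlapped (limma, adjusted p = 0.239, exact permutation p = 0.0571). By the second probe there were WT DEN levels of -1.24, -1.96, -1.29 and -2.14 and WT DEN + PB levels of -0.40, -0.04, 0.42 and -0.75. These did not overlap, as held for 2.72% of probes in that direction, but the change of 1.47 ± 0.48 SE did not pass the test across probes (limma, adjusted p = 0.324, exact permutation p = 0.0286). On the slides with both treatments the difference was 1.16, 1.70 and -0.28 with the brighter probe and 1.20, 1.30 and 0.89 with the second. The PB effect on Gadd45b passed the threshold only in the fit with array weights, at 1.41, and was lowest with normexp, at 0.77.

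Gadd45g, the paralogue cloned as a cytokine response gene, passed no test. Its levels were 3.70, 3.43, 4.04 and 5.65 in WT DEN and 3.39, 4.23, 3.95 and 3.08 in KO DEN livers. In WT DEN + PB livers they were 4.49, 3.36, 1.69 and 4.51, and in KO DEN + PB livers 3.11, 3.34, 6.89 and 5.32. The highest value of all 16, in KO DEN + PB replicate 3, and the lowest, in WT DEN + PB replicate 3, were both under PB, and all group pairs overlapped. KO minus WT was -0.54 ± 0.77 SE under DEN (95% interval -2.17 to 1.08, limma, adjusted p = 0.738) and 1.15 ± 0.77 SE under DEN + PB (interval -0.47 to 2.78, adjusted p = 0.389). Single livers moved these values: under DEN + PB the change was 0.41 without KO DEN + PB replicate 3, 0.55 without WT DEN + PB replicate 3 and up to 1.67 without any other liver, and under DEN it was -0.06 without WT DEN replicate 4 and -0.35 without KO DEN replicate 4. Over both treatments it was 0.31 ± 0.54 SE, with an interval from -0.84 to 1.45. That interval reaches from a 1.79-fold fall to a 2.74-fold rise, and these arrays bound the change no more closely. On the 4 slides the difference under DEN + PB was 1.96, -1.39, -1.15 and 5.20. The PB effect on Gadd45g was -0.70 ± 0.77 SE in WT and 1.00 ± 0.77 SE in KO, and neither was called. The WT effect was -0.09 without WT DEN + PB replicate 3 and -0.22 without WT DEN replicate 4, and the KO effect 0.26 without KO DEN + PB replicate 3 and 1.52 without replicate 1. The difference of these effects was -1.70 ± 1.08 SE (limma, adjusted p = 0.941).

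Gadd45g varied widely among livers of 1 group. Its SD within groups was 1.25, larger than that of 99.7% of the probes tested, whose median was 0.30, and larger than that of 99.5% of 999 probes of like level. The 4 KO DEN + PB livers covered a 13.7-fold range. The spread differed between groups, with an SD of 0.52 in KO DEN. Gadd45a, with an SD within groups of 0.52, and the brighter Gadd45gip1 probe, with 0.31, also varied more than most probes of like level, 96.6% and 84.9% of which had a smaller SD.

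Gadd45gip1 passed no test. Its brighter probe (A_51_P419086) was at 5.03, 4.23, 4.83 and 4.35 in WT DEN livers and 4.36, 5.17, 4.57 and 4.62 in KO DEN livers. With PB added it was at 4.17, 4.50, 4.73 and 4.35 in WT and at 4.75, 4.63, 5.17 and 4.71 in KO. All 16 values lay within a 1.99-fold range, and the groups overlapped. KO minus WT was 0.07 ± 0.21 SE under DEN and 0.38 ± 0.21 SE under DEN + PB (limma, adjusted p = 0.308, exact permutation p = 0.0857, interval -0.07 to 0.83). Over both treatments it was 0.22 ± 0.15 SE, with an interval from -0.10 to 0.54. The second probe (A_52_P85020) was dim, between 1.43 and 2.00 times its local background, and gave KO minus WT of -0.32 ± 0.23 SE under DEN and 0.05 ± 0.23 SE under DEN + PB, neither called. The 2 probes of this gene differed in the sign of the change under DEN.

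**Figure D3:**
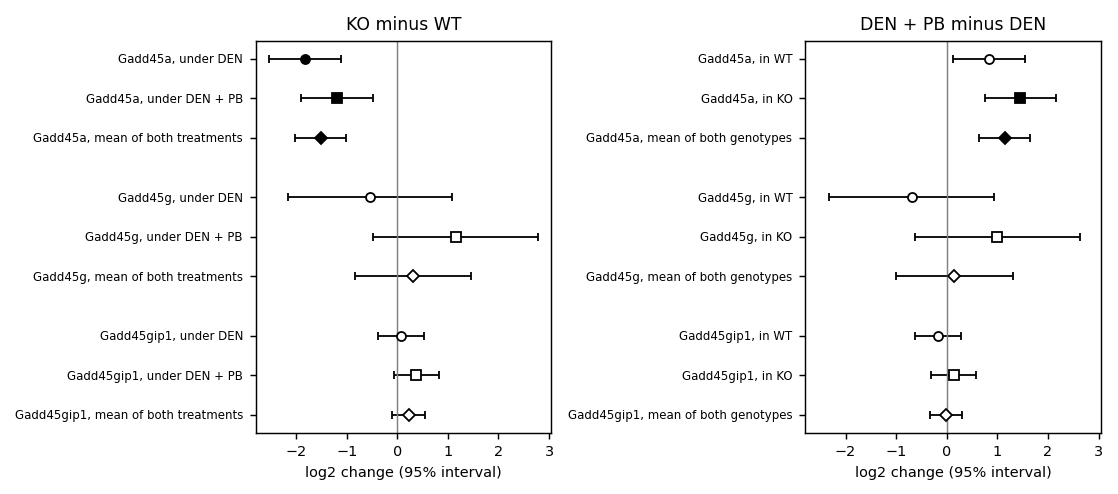
Log2 change with its 95% interval from the fit, KO minus WT on the left and DEN + PB minus DEN on the right, for the brightest probe of Gadd45a, Gadd45g and Gadd45gip1. Filled marks were called. Gadd45a alone has filled marks, all 3 to the left of 0 for genotype, and the Gadd45g intervals are the widest.

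Whether paralogues varied together from mouse to mouse was examined over 6 pairs of members, with Gadd45b taken in the 8 WT livers. Gadd45a and Gadd45b had Pearson's r = 0.835 (permutation p = 0.00967, 0.058 after Benjamini-Hochberg adjustment) and Spearman's rho = 0.833 (permutation p = 0.0154, adjusted 0.0923) over the 8 livers. Without the 2 livers farthest from the median r was 0.669, and with the group means removed 0.674 (permutation p = 0.0628). Gadd45b and Gadd45g had r = -0.733 (permutation p = 0.0442, adjusted 0.133) and rho = -0.452 (permutation p = 0.267, adjusted 0.802), and without 2 livers r was 0.263. With the group means removed r was -0.768 (permutation p = 0.0303, adjusted 0.137) and rho -0.786 (permutation p = 0.0279, adjusted 0.168). Without 2 livers r was then -0.451. The 2 livers left out were picked anew on these values and were not the same pair, so 0.263 and -0.451 cannot be compared. The other 4 pairs had r between -0.07 and 0.19. With the group means removed r was 0.627 for Gadd45b and Gadd45gip1 (permutation p = 0.101, adjusted 0.151) and 0.468 for Gadd45a and Gadd45gip1 (permutation p = 0.0685, adjusted 0.137). No pair passed after adjustment.

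**Figure D4:**
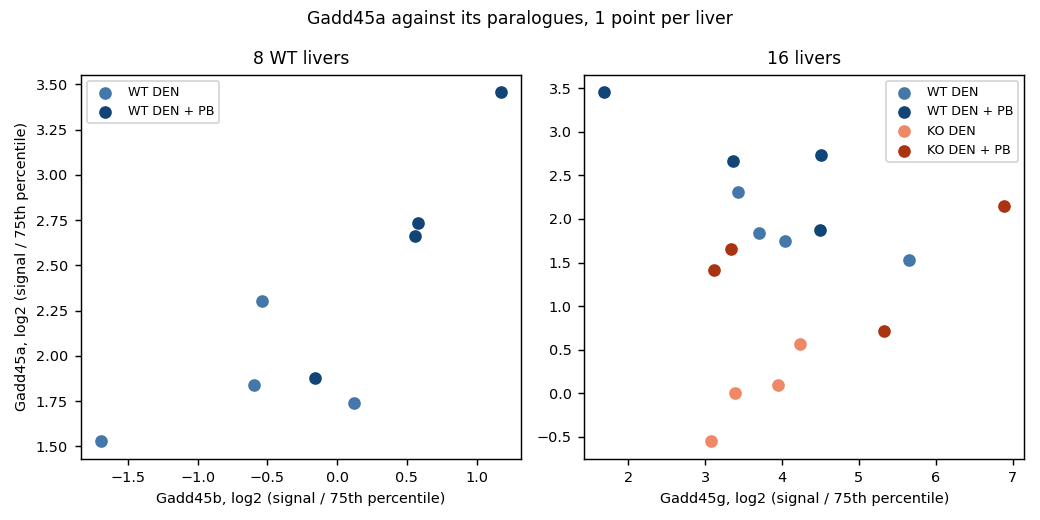
Gadd45a against Gadd45b in 8 WT livers (left) and against Gadd45g in 16 livers (right), both axes as log2 of signal over the array's 75th percentile, 1 point per liver and 1 colour per group. WT livers with more Gadd45b tend to hold more Gadd45a, a relation that did not pass after adjustment, and the points on the right are scattered.

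Genes with the most similar pattern over the arrays were ranked by Pearson's r with each member, as a description. Over 16 arrays these were Nhlrc1 (r = 0.927, and 0.816 with group means removed), F3, which encodes tissue factor (0.910, 0.654), and Fam47e (0.908, 0.606) for Gadd45a. For Gadd45g they were Socs3, the feedback inhibitor of cytokine signalling (r = 0.814), Phlda1 (0.797) and Foxa2, a liver transcription factor (0.762), and without 2 arrays these were 0.628, 0.732 and 0.456. For Gadd45gip1 they were Rps25 (r = 0.937), Atp5e (0.937) and Trmt112 (0.928), which are a protein of the cytosolic ribosome, a subunit of the mitochondrial ATP synthase and a partner of methyltransferases. For Gadd45b in the 8 WT livers they were Stard3nl (r = 0.979), Aif1l (0.957) and Lect2 (0.956), the highest of 13287 genes ranked over few livers. Aif1l was well above background on 6 of these 8 arrays.

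The partners and effectors of GADD45 proteins did not pass the test in any contrast. Of 18 genes listed 17 were tested, among them Map3k4, Mapk14 (p38 alpha), Cdkn1a (p21), Pcna and Nr1i3 (CAR), and 0 were called, where the share over all probes was between 0.00818% and 10.1% by contrast. Their median KO minus WT change over both treatments was 0.11 against 0.03 over all probes tested. Map3k4 was at 2.57 ± 0.07 SD in WT and 2.85 ± 0.14 SD in KO livers under DEN alone, and at 2.60 ± 0.11 SD and 2.72 ± 0.19 SD with PB added (n = 4 each). Cdkn1a was at -0.30 ± 0.42 SD in WT and -0.73 ± 0.43 SD in KO livers under DEN alone, and at -0.71 ± 0.34 SD and -1.02 ± 0.88 SD with PB added.

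Of 17 factors acting on Gadd45 genes and other growth arrest and DNA damage genes, 15 were tested. Trib3, a pseudokinase induced by ATF4, fell by 1.55 on the log2 scale in KO under DEN (± 0.26 SE, limma, adjusted p = 0.00496) and rose 4.40-fold with PB in KO (limma, adjusted p = 0.000187). PB in KO had 1 of 15 called higher, against 1.05% of all probes. The rise of Trib3 was also called over both genotypes, at 2.87-fold (limma, adjusted p = 9.22e-05), and was not called in WT alone. Its mean level went from 2.24 under DEN to 3.14 under DEN + PB in WT, and from 0.69 to 2.82 in KO. Egr1, an immediate early transcription factor, was 2.99-fold lower in KO over both treatments (limma, adjusted p = 0.00727). Smad2, a signal transducer of TGF-beta, was 1.63-fold lower in KO under DEN + PB. The other 12 genes, Trp53 and Ddit3 among them, were not called in any contrast. KO minus WT had 1 of 15 called under DEN, 1 under DEN + PB and 2 over both, against 3.07%, 6.74% and 10.1% of all probes, and the list's median change over both treatments was 0.15 against 0.03 over all probes.

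Immediate early and stress genes were 14, all tested. Under DEN, where 1.41% of all probes were called lower and 1.66% higher, 2 were called lower in KO and 0 higher: Btg2, an antiproliferative gene, at -0.73 ± 0.17 SE, and Zfp36, which destabilises mRNA of cytokines, at -0.66 ± 0.16 SE. Under DEN + PB, where 4.61% of all probes were called lower and 2.13% higher, 3 were called lower and 0 higher, namely Fos at -1.11 ± 0.27 SE, Jun at -0.98 ± 0.28 SE and Atf3 at -0.75 ± 0.20 SE. For PB in KO, 1 of 14 was called higher, against 1.05% of all probes: Zfp36, by 1.61-fold (limma, adjusted p = 0.0386). Under DEN + PB the mean level of Zfp36 was 2.13 in WT and 2.07 in KO livers. The list's median was -0.22 under DEN and -0.21 under DEN + PB, against 0.00 and 0.05 over all probes tested.

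Among fasting and glucocorticoid genes, 11 of 12 were tested. In KO under DEN + PB, Tsc22d3, a glucocorticoid-induced gene, was 2.49-fold higher and Tat, which breaks down tyrosine, 1.60-fold higher. Pdk4, which limits glucose oxidation, was 2.67-fold lower and the kinase Sgk1 2.12-fold lower. The count was 2 higher and 2 lower of 11 under DEN + PB, against 6.74% of all probes called, and 0 under DEN, against 3.07%. Pdk4 also fell with PB in KO, by 1.33 on the log2 scale (limma, adjusted p = 0.029).

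The large subunit of the mitochondrial ribosome, to which GADD45GIP1 belongs, had 49 genes tested and 0 called in any contrast. Over all probes the share called was between 0.00818% and 10.1% by contrast. The median KO minus WT change of these genes was -0.14 under DEN, with 14 of 49 positive, and 0.13 under DEN + PB, with 37 of 49 positive, which gave 0.01 over both. PB in WT had a median of -0.17, with 3 of 49 positive, and PB in KO 0.03, with 29 of 49 positive. Over all probes tested the median KO minus WT change was 0.0003 under DEN, 0.05 under DEN + PB and 0.03 over both. The median PB effect over all probes was -0.015 in WT and 0.0008 in KO. Genes measured on the same arrays are not independent, so the counts of positive changes are no test. The neighbours of Gadd45b on chromosome 10 were compared because a null allele can alter nearby genes. Of 10 neighbours 7 were tested, Lsm7, Sppl2b, Timm13, Lmnb2, Slc39a3, Sgta and Thop1, and 0 were called, against 10.1% of all probes over both treatments, with a median KO minus WT change of 0.05 against 0.03 over all probes.

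**Figure D5:**
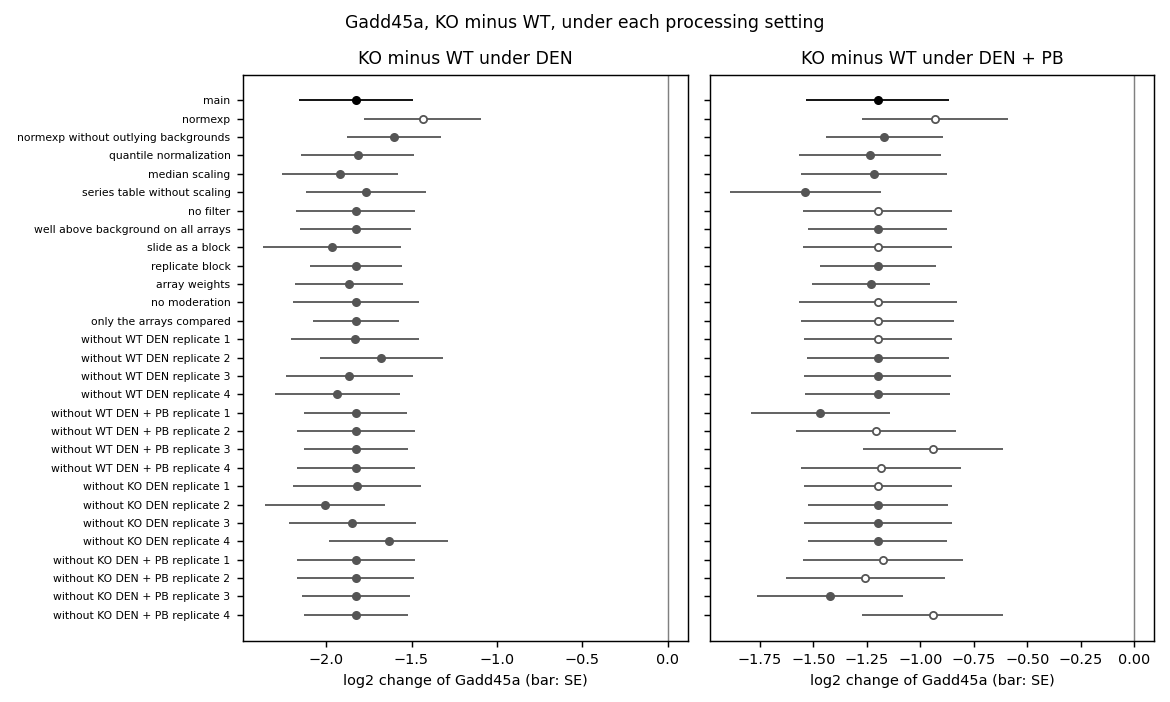
Log2 change of Gadd45a, KO minus WT, with its SE, under DEN (left) and DEN + PB (right), for each processing setting and each array left out. Filled points have adjusted p under 0.05. All points lie left of 0, filled under DEN except with normexp with outlying backgrounds kept, and partly open under DEN + PB.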

How the data were processed

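Liver RNA of 16 mice was measured on 16 arrays in 4 groups of 4, grouped by the labels. The authors deposited scanner files of Agilent Feature Extraction (version 12 in the submitters' processing notes), whose processed signal is a linear intensity already corrected for background, and a series table of its means per probe. Spots marked as outliers were left out (71 to 122 per array), spots of a probe were averaged, and log2 values were taken relative to the array's 75th percentile. Probes entered the tests if some group had them well above background on each of its 4 arrays (24457 of 41174). A model of 4 group means was fitted with limma 3.58.1 in R 4.3.3, with Benjamini-Hochberg adjustment over all tested probes. Arrays came from 4 slides. Probes were named through RefSeq of GRCm38.p6, which gave 28223 probes a symbol. The array design's own build differs, so its coordinates were not used.

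Exact permutation tests covered single members. Genes to be named by plan were all members, up to 4 called genes of each list by size of change, and the 3 most alike genes of each member. More called genes were named for the immediate early list. Outside this rule, uncalled genes such as Map3k4, Cdkn1a and Trp53 were named as examples, as were the tested neighbours of Gadd45b. Where several probes measured a gene, the brightest stood for it. The members and lists were chosen with earlier results of these data known. The normexp alternative used the median spot signal, not the mean signal that was planned. On simulated data with 200 changed probes among 24457, the fit recovered 57% of 2-fold and 98% of 4-fold changes for KO minus WT under DEN, and 16% and 85% for the difference of PB effects. The changed probes were drawn from all those tested, each at its own spread. These shares need not hold for Gadd45g, whose SD within groups was 1.25 against a median of 0.30. The number of arrays limits the precision.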

Additional observations from a re-analysis of the deposited data

Results flagged for a closer look

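In 3 of the 24 combinations of probe and group, 1 array stood apart from the other 3 by more than Dixon's critical value for 4 samples, and chance gives about 1 in 20. The brighter Gadd45b probe did so in KO DEN (ratio 0.8546, replicate 1 at -7.67) and in KO DEN + PB (ratio 0.9264, replicate 3 at -5.79), in both groups at levels not well above background. The dim Gadd45gip1 probe did so in KO DEN (ratio 0.8987, replicate 4 at -4.42), where the 4 arrays covered a 1.09-fold range.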

How the results depend on the processing

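The lower Gadd45a in KO over both treatments was called under all 11 other settings (-1.65 to -1.18) and without each array (-1.65 to -1.38). With normexp, Gadd45a lost its genotype calls under DEN (-1.44) and DEN + PB (-0.93) and its calls for PB in KO (1.21) and for PB over both genotypes (0.96). All of these calls were kept in another normexp fit, which left out spots with outlying background. The PB call in KO was also lost with the unscaled series table (1.16), with slide as a block (1.53), and, at an equal change of 1.46, with no filter, no moderation or only the arrays compared. The call under DEN + PB was also lost, at an equal change of -1.20, with no filter, slide as a block, no moderation or only the arrays compared. The PB call over both genotypes was also lost with the series table (1.05) and with no moderation (1.14). The cause was not tested. Leaving out 1 array gave -2.01 to -1.63 for Gadd45a under DEN, -1.47 to -0.94 under DEN + PB, 1.23 to 1.71 for PB in KO and 1.01 to 1.28 for PB over both genotypes. Array weights brought PB on Gadd45b in WT past the threshold (1.41).

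Signs turned only for changes that were not called. For Gadd45g these were PB over both genotypes (-0.047 with array weights; leaving out 1 array -0.22 to 0.46) and KO minus WT over both treatments (-0.0653 to 0.56 leaving out 1 array). For Gadd45gip1 they were PB in KO (-0.16) and the difference of PB effects (0.0890) with the series table, KO minus WT under DEN (-0.0229 with median scaling, -0.14 with slide as a block, -0.32 with the other probe, -0.0930 to 0.21 leaving out 1 array), KO minus WT over both treatments (-0.14 with the other probe), and PB over both genotypes (0.0491 with array weights, -0.0840 to 0.0606 leaving out 1 array).

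Counts of genes called ranged over the settings from 13 to 226 for PB in WT (110 as reported), 44 to 453 for PB in KO (309), 14 to 618 for KO minus WT under DEN (522), 40 to 1799 under DEN + PB (1226), 356 to 1693 over both treatments (1599), 67 to 377 for PB over both genotypes (300) and 0 to 5 for the difference of PB effects (0), with the lowest count under normexp in each. The labels give each group replicate numbers 1 to 4, but same-numbered arrays did not deviate together (median r 0.01, over 0.1 in 6 of 24 pairs). With the replicate number as a block, Gadd45a kept its calls: -1.83 under DEN (limma, adjusted p = 0.00403), -1.20 under DEN + PB (0.0171) and 1.46 for PB in KO (0.015).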
